A study of Mus musculus with 12 samples.

Results

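The genes described here encode the SR proteins and the hnRNP proteins that carry those names, the main groups of factors that help the splicing machinery choose its sites. They were taken from the deposited gene table as every gene whose symbol was Srsf or Hnrnp followed only by lower case letters and digits, which gave 31 of 43472 genes: 11 Srsf genes and 20 Hnrnp genes. A row named Hnrnpa1l2-ps fell outside that rule and stayed at or below 0.574 CPM. CPM is the number of reads of a gene per 1000000 reads of its library. Of the members, 30 had a mean level high enough to be tested (at least 3.582 CPM). Srsf12, the closest relative of Srsf10, did not, with 0 to 0.183 CPM in the 12 libraries, all below the 0.218 to 0.285 CPM that a count of 3 reads corresponds to, the limit that a count of 0 allows.

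The study measured RNA from whole mouse embryos of the CD1 stock, collected as morulae, as early blastocysts or as late blastocysts. At each stage 1 group had received siRNA against Tdgf1 and the other a negative control siRNA, with 2 libraries in each of the 6 groups. Tdgf1 encodes a cell-surface co-receptor for Nodal ligands, and the comparison between the siRNA groups asks what its depletion does in embryos whose inner cells are choosing their fates. In all 6 groups the siRNA was delivered at the zygote stage along with mRNA for green fluorescent protein, so no uninjected embryo served as a baseline. The labels do not say how many embryos went into a library or whether replicates came from separate collections, so p-values measure the spread between these libraries, which may be technical. In whole embryos, fewer cells of a type and less RNA per cell cannot be told apart.

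SR proteins bind exons through RNA recognition motifs and recruit the spliceosome through a tail rich in arginine and serine, whose phosphorylation by SRPK and CLK kinases sets where they act. The hnRNP proteins coat nascent transcripts, and several of them, such as hnRNP A1, block sites that SR proteins promote, so that the balance of both groups shapes exon use. Many of their genes also hold exons with early stop codons, through which high protein levels send their own transcripts to nonsense-mediated decay. In mouse preimplantation embryos, loss of single SR proteins such as Srsf3 is known to stop development before implantation.

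Libraries held 10524640 to 13770264 reads. The members together took 1.02 to 1.13% of reads in the 4 morula libraries, 1.02 to 1.06% in the 4 early blastocyst libraries and 0.889 to 0.987% in the 4 late blastocyst libraries, so every late blastocyst library lay below every earlier one. Tdgf1 itself was at 15.5 and 11.0 CPM in Tdgf1 siRNA morulae and at 29.4 and 23.4 CPM in control siRNA morulae. Early blastocysts had 9.27 and 15.2 CPM with Tdgf1 siRNA, against 21.7 and 13.1 CPM with control siRNA. Late blastocysts had 49.5 and 70.8 CPM with Tdgf1 siRNA, against 97.3 and 84.6 CPM with control siRNA. At the early blastocyst stage, the library labelled Tdgf1 siRNA replicate 2 thus held 117% of the Tdgf1 level of the control library with the same number, and the other 5 such pairs lay at 42.6 to 83.6%. Summed trophectoderm markers (Cdx2, Gata3, Krt8, Krt18, Tfap2c) ran from 658 to 762 CPM in Tdgf1 siRNA morulae, from 1740 to 3390 CPM in early and from 5127 to 5733 CPM in late blastocysts. In control siRNA embryos the same sum ran from 534 to 700 CPM in morulae, from 1643 to 3650 CPM in early and from 6373 to 7354 CPM in late blastocysts. Summed inner cell mass markers (Nanog, Sox2, Pou5f1, Klf2) lay at 281 to 297 CPM in late blastocysts of the Tdgf1 siRNA group, against 670 to 757 CPM in its morulae, and at 232 to 236 CPM in late blastocysts of the control group, against 663 to 963 CPM in its morulae. Within these sums Sox2 went the other way and was called higher in both arms, with 12.7 ± 2.95 CPM (SD, n = 2) in late blastocysts with Tdgf1 siRNA, against 2.28 ± 0.535 CPM in morulae, and 9.0 ± 4.0 CPM with control siRNA, against 2.12 ± 0.306 CPM, and Tfap2c was called lower in the control arm, by 0.84 ± 0.16 on the log2 scale. Of 4 primitive endoderm markers, Sox17, Pdgfra and Gata4 were called higher and Gata6 lower between morula and late blastocyst in both arms, and their sum ran from 361 to 366 CPM in late blastocysts with Tdgf1 siRNA, against 402 to 462 CPM in morulae, and from 300.3 to 351 CPM with control siRNA, against 392 to 437 CPM. Neither sum declined steadily. In early blastocysts the inner cell mass sum ran from 817 to 878 CPM with Tdgf1 siRNA, above its morulae. With control siRNA it ran from 755 to 780 CPM, within the range of its morulae. The early primitive endoderm sum ran from 275 to 292.5 CPM with Tdgf1 siRNA and from 232 to 276 CPM with control siRNA. Those values lay below both other stages in each arm. Of 8 markers of cumulus and granulosa cells Amh, Fshr, Cyp19a1, Has2, Ptx3 and Lhcgr were below the level for testing. The other 2 were measured and moved in opposite directions, both called in both arms. Serpine2 had 80.2 ± 14.3 CPM in late blastocysts with Tdgf1 siRNA, against 19.1 ± 8.77 CPM in morulae, and 90.8 ± 1.64 CPM with control siRNA, against 17.7 ± 0.839 CPM. Amhr2 had 6.27 ± 0.758 CPM in late blastocysts with Tdgf1 siRNA, against 14.8 ± 2.02 CPM in morulae, and 3.99 ± 0.581 CPM with control siRNA, against 20.3 ± 4.13 CPM. Of 4 blood markers 3 were below the level for testing, and Cd74 ran from 1.16 to 39.1 CPM over the 12 libraries, with no call between morula and late blastocyst. The part of such shifts in cell makeup in the stage results below was not tested. On the first principal component of all tested genes, both early blastocyst libraries numbered 2 lay nearer the morulae (-15.9 with Tdgf1 siRNA, -20.2 with control siRNA) than those numbered 1 (1.20 and 6.01).

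Per length of the principal transcript, averaged over the 12 libraries, the most abundant members were Hnrnpa2b1 at 423 CPM per kb, Srsf2 at 400 CPM per kb and Hnrnpa1 at 392 CPM per kb. Hnrnpa2b1 and Hnrnpa1 are the classical hnRNP core proteins, and Srsf2 is an SR protein that binds exonic enhancers and is known as a marker of nuclear speckles. Hnrnpab, a relative of hnRNP D and of the A/B group, followed at 391 CPM per kb. This order depends on the length used. Divided by all annotated exon bases, Hnrnpab came first, Srsf2 next and Hnrnpa1 after it, while Hnrnpa2b1 dropped to place 11. The lowest measured members were Hnrnpr, whose annotated principal transcript is 21452 bases long, at 4.29 CPM per kb, Hnrnpul2 at 5.39 CPM per kb and Hnrnpul1 at 7.90 CPM per kb.

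Hnrnpa2b1 had 737 and 739 CPM in morulae, 638 and 659 CPM in early and 663 and 621 CPM in late blastocysts of the Tdgf1 siRNA group. Its control siRNA values were 869 and 766, 614 and 678, and 708 and 746 CPM at the same stages, and the morula libraries lay highest in each arm. Srsf2 had 930 and 759, 659 and 788, and 734 and 644 CPM with Tdgf1 siRNA from morula to late blastocyst. With control siRNA its levels were 872 and 820, 716 and 827, and 721 and 649 CPM, so the late libraries lay below the morula libraries in each arm, but neither arm passed the test between these stages (limma adjusted p of 0.156 and 0.128). Srsf2 shares 460 exonic bases with Mettl23 and 288 with Mfsd11, both on the other strand. Mettl23 averaged 264 ± 20.1 CPM (SD, n = 2) in late blastocysts with Tdgf1 siRNA, against 333 ± 36.9 CPM in morulae. With control siRNA it averaged 236 ± 36.6 CPM, against 335 ± 15.1 CPM. Mfsd11 ran from 97.9 to 202 CPM over the 12 libraries. Hnrnpr, which binds RNA in the nucleus and in axons, had 94.6 and 93.6, 109 and 79.0, and 84.7 and 80.7 CPM with Tdgf1 siRNA. Its control siRNA values were 105 and 109, 104 and 74.2, and 81.4 and 88.7 CPM. Hnrnpul2, a relative of hnRNP U, had 27.9 and 33.9, 28.5 and 16.1, and 29.3 and 33.6 CPM with Tdgf1 siRNA. Its control siRNA values were 29.3 and 31.0, 24.5 and 17.2, and 35.1 and 24.5 CPM, and both early blastocyst libraries numbered 2 held its lowest values. Hnrnpul1, another relative of hnRNP U, had 27.2 and 21.7, 41.5 and 23.0, and 41.5 and 36.3 CPM with Tdgf1 siRNA. With control siRNA it had 24.4 and 23.8, 34.8 and 24.0, and 34.1 and 26.3 CPM, so at the early stage both libraries numbered 1 stood above those numbered 2.

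Between morula and late blastocyst, 4 members rose in both siRNA groups, Hnrnph3, Hnrnpa0, Hnrnpdl and Srsf5, and 4 fell in both, Hnrnpab, Srsf1, Hnrnpf and Hnrnph2. Changes of those called in either arm were moderate, between a fall to 0.536 of the morula level and a rise of 2.46-fold. In Tdgf1 siRNA embryos 4 of 30 members rose (13.3%, where 27.2% of all 10751 tested genes did) and 5 fell (16.7%, against 16.6% of all). In control siRNA embryos 4 rose (13.3%, against 28.9% of all) and 7 fell (23.3%, against 19.3% of all). The median log2 change of the members was -0.05 with Tdgf1 siRNA and -0.11 with control siRNA, and that of all tested genes was 0.13 in each arm. Changes were tested with limma on log2(value + 1) in the deposited unit, which adds 3.582 CPM to every level and so understates the change of low genes, and adjusted by Benjamini-Hochberg over all 10751 genes, with a threshold of 0.05. Scaling by trimmed means (TMM) moved the median of all genes to 0.01 in each arm and the share of rises among all calls to 52.5% with Tdgf1 siRNA and 51.3% with control siRNA, where the deposited scale gave 62.0% and 60.0%. TMM uses 1 factor for each library (0.946 to 0.972 in morulae, 1.031 to 1.068 in late blastocysts), so it lowered member changes too. The value of 0.01 is therefore not to be set against the member medians above, which are on the deposited scale. Without late blastocyst control siRNA replicate 1 the control arm had 7 called members in place of 11, and without morula Tdgf1 siRNA replicate 1 the Tdgf1 arm had 5 in place of 9.

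**Figure D1:**
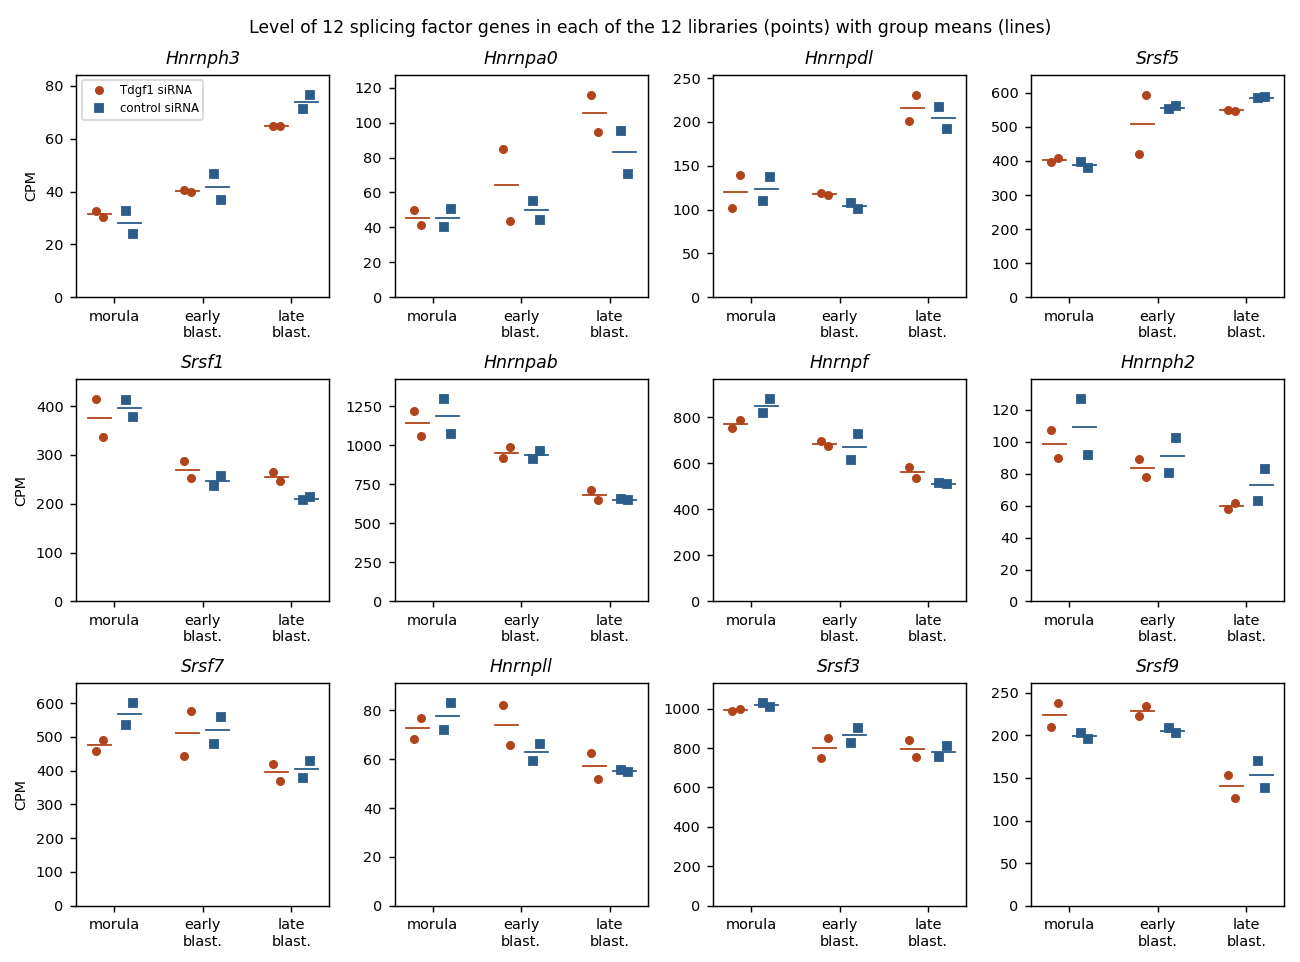
Level in CPM (y axes, from 0) of 12 members at each stage (x axes), with a point for each library and a line for the mean of its 2 libraries, Tdgf1 siRNA in red and control siRNA in blue. Hnrnph3, Hnrnpa0, Hnrnpdl and Srsf5 were higher in the late blastocyst than in the morula libraries of both arms, and the other 8 were lower.

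Hnrnph3, a member of the group that binds runs of G, rose most in the control arm. It had 32.7 and 30.3 CPM in morulae, 40.7 and 39.7 CPM in early and 64.9 and 64.7 CPM in late blastocysts of the Tdgf1 siRNA group. In control siRNA embryos it had 32.6 and 23.8, 46.5 and 36.7, and 71.0 and 76.6 CPM. All 4 late libraries lay above all 8 earlier ones. Its log2 change from morula to late blastocyst was 0.96 ± 0.19 (SE, 2 libraries a group) with Tdgf1 siRNA and 1.30 ± 0.19 with control siRNA, with limma adjusted p of 0.00115 and 0.000103. The gene lies at chr10:63014664-63024217 on the minus strand (GRCm38) and shares 115 exonic bases with Rufy2 on the other strand, itself at 33.6 ± 0.882 CPM (SD, n = 2) in late blastocysts with Tdgf1 siRNA against 16.0 ± 1.72 CPM in morulae.

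Hnrnpdl, a relative of hnRNP D that binds AU-rich RNA, was higher in the late blastocyst than at both earlier stages. It had 101 and 140, 119 and 117, and 201 and 231 CPM with Tdgf1 siRNA from morula to late blastocyst. Control siRNA embryos had 110 and 137, 108 and 101, and 217 and 192 CPM, and again no late library overlapped an earlier one. The log2 change from morula was 0.84 ± 0.18 with Tdgf1 siRNA and 0.72 ± 0.18 with control siRNA (limma adjusted p of 0.00176 and 0.00402). From early to late blastocyst it was 0.85 ± 0.18 and 0.95 ± 0.18 (limma adjusted p of 0.00444 and 0.00172), and without late blastocyst Tdgf1 siRNA replicate 2 the adjusted p of this step in that arm was 0.0528.

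Hnrnpa0, a single-exon relative of hnRNP A1, had 50.1 and 41.2, 84.7 and 43.4, and 116 and 94.7 CPM from morula to late blastocyst with Tdgf1 siRNA. It had 40.0 and 50.5, 55.1 and 44.4, and 95.2 and 70.7 CPM with control siRNA. Every late library exceeded every morula library, while the early Tdgf1 siRNA replicate 1 reached into the range of late libraries. The log2 change was 1.14 ± 0.27 with Tdgf1 siRNA and 0.82 ± 0.27 with control siRNA (limma adjusted p of 0.00355 and 0.0215), and the control call was lost without morula control siRNA replicate 1, without late blastocyst control siRNA replicate 1 and without the filter on low genes, with adjusted p up to 0.169.

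Srsf5 was the only SR protein gene that rose between these stages in either arm, and all 4 of its early blastocyst libraries already lay above all 4 morula libraries. Srsf5 shares its layout of tandem RNA recognition motifs with Srsf4 and Srsf6 and is known as an early response gene of growth stimulation. It had 396 and 409, 421 and 594, and 551 and 546 CPM with Tdgf1 siRNA, and 396 and 381, 553 and 560, and 584 and 587 CPM with control siRNA. The log2 change from morula to late blastocyst was 0.44 ± 0.16 with Tdgf1 siRNA and 0.59 ± 0.16 with control siRNA (limma adjusted p of 0.0331 and 0.00674). The Tdgf1 call held under 15 of 24 alternatives and the control call under 21. TMM scaling, edgeR and DESeq2 each ended the call in both arms, and in the Tdgf1 arm it was also lost without the filter, without the trend and without any 1 of the 4 Tdgf1 siRNA libraries of morulae and late blastocysts. The direction was kept throughout, with adjusted p up to 0.248 in the Tdgf1 arm and 0.0672 in the control arm. The 24 alternatives include runs without a library of a group that is not compared, which act only through the shared estimate of spread. They also include a run on means of both arms, which is the same for each arm. Such tallies, here and below, are therefore no measure of robustness by themselves, and the named losses show more.

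Among the genes that fell, Srsf1, the founding SR protein, dropped before the early blastocyst. It had 415 and 336, 287 and 253, and 264 and 247 CPM with Tdgf1 siRNA, and 414 and 378, 236 and 256, and 207 and 214 CPM with control siRNA. Each morula library exceeded all 8 blastocyst libraries. The change from morula to late blastocyst was -0.54 ± 0.15 with Tdgf1 siRNA and -0.90 ± 0.15 with control siRNA (limma adjusted p of 0.00849 and 0.000225). The Tdgf1 call was lost without morula Tdgf1 siRNA replicate 1 and without late blastocyst Tdgf1 siRNA replicate 2.

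Hnrnpab had 1219 and 1063, 918 and 988, and 716 and 650 CPM with Tdgf1 siRNA, and 1298 and 1076, 914 and 966, and 659 and 648 CPM with control siRNA, and the 3 stages did not overlap in either arm. The log2 change from morula to late blastocyst was -0.74 ± 0.15 with Tdgf1 siRNA and -0.85 ± 0.15 with control siRNA (limma adjusted p of 0.00118 and 0.000340). Of the single steps, that from morula to early blastocyst was not called, at -0.26 ± 0.15 with Tdgf1 siRNA and -0.33 ± 0.15 with control siRNA (limma adjusted p of 0.254 and 0.142), and that from early to late blastocyst was called, at -0.48 ± 0.15 and -0.52 ± 0.15 (0.0303 and 0.0176). The later step held under 17 of 24 alternatives with Tdgf1 siRNA and 20 with control siRNA, and was lost in either arm without its early replicate 2 or without any 1 of its late replicates. With Tdgf1 siRNA this step was also lost without the filter, after quantile normalization and without the trend. Its exons share 809 bases with those of Phykpl on the other strand, which averaged 387 ± 21.2 CPM (SD, n = 2) in late blastocysts with Tdgf1 siRNA, against 688 ± 37.5 CPM in morulae, and 344 ± 28.2 CPM with control siRNA, against 711 ± 21.2 CPM. The labels do not state strand, so reads from the shared bases cannot be assigned.

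Hnrnpf and Hnrnph2 bind G-rich RNA as hnRNP H1 does. Hnrnpf had 754 and 789, 696 and 676, and 585 and 538 CPM with Tdgf1 siRNA, and 820 and 880, 617 and 728, and 513 and 510 CPM with control siRNA. Its log2 change from morula to late blastocyst was -0.46 ± 0.14 with Tdgf1 siRNA and -0.73 ± 0.14 with control siRNA (limma adjusted p of 0.0148 and 0.000645). The Tdgf1 call was lost without either Tdgf1 siRNA morula library and without late blastocyst Tdgf1 siRNA replicate 2, with adjusted p up to 0.102. Hnrnph2, an X-linked gene, had 107 and 90.2, 88.9 and 77.7, and 57.6 and 61.4 CPM with Tdgf1 siRNA, and 127 and 91.7, 80.3 and 102, and 62.9 and 83.1 CPM with control siRNA. Its late libraries lay below its morula libraries in each arm, with log2 changes of -0.69 ± 0.20 and -0.55 ± 0.20 (limma adjusted p of 0.0130 and 0.0354). The Tdgf1 call was lost without the filter and without replicate 1 of the morula or late Tdgf1 siRNA group, and the control call without the filter, without the trend and without replicate 1 of the morula or late control group, with adjusted p up to 0.10 and 0.287.

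Srsf9, the closest relative of Srsf1, fell in the Tdgf1 siRNA group. It had 210 and 238, 223 and 235, and 153 and 127 CPM there, and 203 and 196, 208 and 203, and 169 and 138 CPM with control siRNA, so its late libraries were below all earlier ones in both arms. The log2 change from morula was -0.67 ± 0.15 with Tdgf1 siRNA (limma adjusted p of 0.00302) and -0.38 ± 0.15 with control siRNA (0.0547). Srsf3, Srsf7 and Hnrnpll fell in the control group. Srsf3, a small SR protein that also acts in export and 3′ end choice, had 988 and 999, 748 and 850, and 840 and 753 CPM with Tdgf1 siRNA, and 1028 and 1009, 828 and 903, and 753 and 810 CPM with control siRNA. Its change was -0.32 ± 0.14 with Tdgf1 siRNA and -0.38 ± 0.14 with control siRNA (limma adjusted p of 0.0739 and 0.0334), so the arms differed in the call and hardly in size. The control call held under 18 of 24 alternatives and was lost after quantile normalization, without the trend and without any 1 of the 4 control libraries of morulae and late blastocysts.

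Srsf7, a relative of Srsf3 with a zinc knuckle, had 458 and 491, 443 and 578, and 421 and 368 CPM with Tdgf1 siRNA, and 535 and 600, 480 and 559, and 380 and 427 CPM with control siRNA. Its change was -0.27 ± 0.16 with Tdgf1 siRNA and -0.49 ± 0.16 with control siRNA (limma adjusted p of 0.197 and 0.0225), and the control call was lost without the filter, without the trend, without morula control siRNA replicate 2 and without late blastocyst control siRNA replicate 1. Hnrnpll, known for skipping exons of Ptprc in lymphocytes, had 68.3 and 77.0, 82.4 and 66.0, and 62.6 and 51.8 CPM with Tdgf1 siRNA, and 72.1 and 82.9, 59.3 and 66.3, and 55.6 and 54.8 CPM with control siRNA. Its change was -0.33 ± 0.17 with Tdgf1 siRNA and -0.46 ± 0.17 with control siRNA (limma adjusted p of 0.142 and 0.0423). Its control call held under 16 of 24 alternatives and was lost without the filter, without the trend and without any 1 of the 4 morula libraries or the 2 late control libraries. The test of whether the siRNA difference varied over the 3 stages, a limma F test, gave unadjusted p of 0.332 for Srsf9, 0.764 for Srsf3, 0.543 for Srsf7 and 0.469 for Hnrnpll, so a difference between the arms in these falls was not shown.

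**Figure D2:**
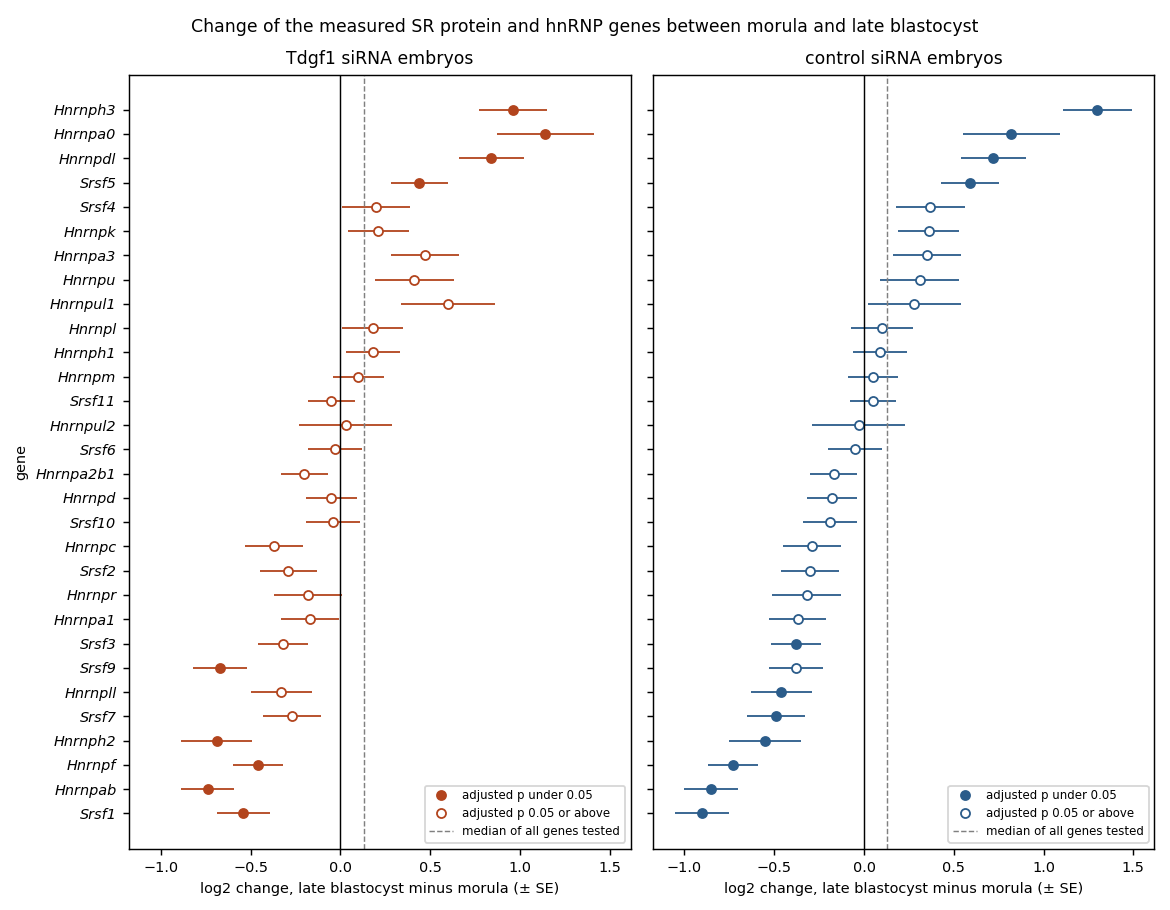
Log2 change from morula to late blastocyst (x axis, bars ± SE) of the 30 measured members (y axis, ordered by the control arm) in Tdgf1 siRNA embryos at left and control siRNA embryos at right; filled points passed the adjusted threshold and the dashed line marks the median of all tested genes, 0.13. Values ran from -0.74 to 1.14 with Tdgf1 siRNA and from -0.90 to 1.30 with control siRNA.

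The members in between did not pass the test from morula to late blastocyst in either arm, and their changes lay between -0.37 and 0.60. Towards the upper end were Hnrnpul1 with 0.60 ± 0.26 in Tdgf1 siRNA and 0.28 ± 0.26 in control siRNA embryos, Hnrnpa3, a relative of hnRNP A1, with 0.47 ± 0.19 and 0.35 ± 0.19, and Hnrnpk, which binds C-rich RNA through KH domains, with 0.21 ± 0.17 and 0.36 ± 0.17. Towards the lower end were Hnrnpc, which binds tracts of U, with -0.37 ± 0.16 in Tdgf1 siRNA and -0.29 ± 0.16 in control siRNA embryos, and Hnrnpa1 with -0.17 ± 0.16 and -0.37 ± 0.16. Closest to 0 in both arms were Srsf6, Srsf11, Hnrnpul2 and Hnrnpm, all within 0.10 of it. Hnrnpd, Hnrnpl, Hnrnph1, Hnrnpr, Hnrnpa2b1, Hnrnpu, Srsf2, Srsf4 and Srsf10 made up the rest. Over the 12 libraries Hnrnpl, which binds CA repeats, ran from 43.8 to 61.6 CPM and Hnrnpm, a factor of epithelial and mesenchymal exon choice, from 137 to 168 CPM. Hnrnpm shares 1169 exonic bases with March2 on the same strand, for which no level was found under that symbol. Srsf6 ran from 256 to 387 CPM, with its 4 highest values in the 4 early blastocyst libraries. Srsf10, a repressor of splicing when it loses its phosphates, ran from 182 to 254 CPM.

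Single steps had fewer called members. From morula to early blastocyst 1 member rose and 1 fell with Tdgf1 siRNA (8.80% of all genes rose and 6.62% fell), and 2 rose and 1 fell with control siRNA (9.52% and 6.32% of all). Hnrnpk rose in both arms. It had 925 and 820 CPM in early blastocysts with Tdgf1 siRNA, against 624 and 504 CPM in morulae, and 894 and 855 CPM with control siRNA, against 683 and 524 CPM. The log2 change was 0.63 ± 0.17 with Tdgf1 siRNA and 0.54 ± 0.17 with control siRNA (limma adjusted p of 0.0237 and 0.0422), and the Tdgf1 call held under 20 of 24 alternatives, the control call under 11. The Tdgf1 call was lost without the filter, without the trend and without morula replicate 2 or early replicate 1 of that arm. The control call was lost with TMM scaling, edgeR and DESeq2, without the filter and without the trend. It was also lost without any 1 of 7 libraries, morula replicate 2 and both early replicates of its own arm among them. In late blastocysts Hnrnpk stood at 672 and 629 CPM with Tdgf1 siRNA and at 701 and 841 CPM with control siRNA, below both early libraries in each arm, with no call. Hnrnpk shares 330 exonic bases with Rmi1 on the other strand, at 19.3 to 35.2 CPM. Srsf1 fell in both arms at this step, by 0.46 ± 0.15 on the log2 scale with Tdgf1 siRNA and by 0.68 ± 0.15 with control siRNA (limma adjusted p of 0.0464 and 0.00910). The Tdgf1 call held under 10 of 24 alternatives, being lost without the filter, without the trend, after quantile normalization and without any 1 of the 4 Tdgf1 siRNA libraries compared, with adjusted p up to 0.318. Leaving out any 1 control siRNA morula library, or any 1 late blastocyst library of either arm, also ended the Tdgf1 call. The control call held under 22 alternatives, being lost without replicate 1 of the morula or early control group. Srsf5 rose with control siRNA, by 0.52 ± 0.16 (limma adjusted p of 0.0387), a call that held under 8 of 24 alternatives. This call was lost with the means of both arms. Leaving out any 1 Tdgf1 siRNA morula library or any 1 late blastocyst library of either arm ended it too. It was lost with TMM scaling, edgeR and DESeq2, without the filter, without the trend and without any 1 of the 4 control libraries compared, with adjusted p up to 0.158.

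From early to late blastocyst 2 members rose and 4 fell with Tdgf1 siRNA (15.0% and 8.59% of all genes), and 3 rose and 4 fell with control siRNA (16.5% and 11.2% of all). After quantile normalization 49.5% of all calls at this step were rises with Tdgf1 siRNA and 48.2% with control siRNA, where the deposited scale gave 63.6% and 59.6%. Hnrnpdl and Hnrnph3 rose in both arms, and Hnrnpa1, Hnrnpab and Hnrnpc fell in both. Hnrnpa1 had 723 and 543 CPM in late blastocysts with Tdgf1 siRNA, against 942 and 870 CPM in early ones, and 629 and 584 CPM with control siRNA, against 895 and 845 CPM. Hnrnpc had 547 and 488 CPM in late blastocysts with Tdgf1 siRNA, against 740 and 927 CPM in early ones, and 540 and 623 CPM with control siRNA, against 776 and 877 CPM. The groups did not overlap for either gene, and the log2 changes were -0.53 ± 0.16 and -0.52 ± 0.16 for Hnrnpa1 and -0.68 ± 0.16 and -0.51 ± 0.16 for Hnrnpc with Tdgf1 and control siRNA (limma adjusted p between 0.0106 and 0.0356). Hnrnpa1 kept its call under 17 of 24 alternatives with Tdgf1 siRNA and 16 with control siRNA, and Hnrnpc under 21 and 18. In both arms Hnrnpa1 lost its call without the filter, after quantile normalization and without the trend. Hnrnpc lost its control call without the filter and without the trend. Leaving out early replicate 2 or late replicate 2 of an arm ended the call of both genes in that arm, as leaving out early replicate 1 did for Hnrnpa1 in each arm and leaving out late replicate 1 for both genes in the control arm. Both genes had their highest group means in early blastocysts in each arm, although the step from morula did not pass the test. Srsf9 fell with Tdgf1 siRNA, a call lost without late replicate 2 of that arm, and with control siRNA Hnrnpu rose and Hnrnpf fell. The Hnrnpf call held under 10 of 24 alternatives. It was lost without the filter, after quantile normalization, without the trend and with the means of both arms. Leaving out early control siRNA replicate 2 or either late control library also ended it. So did leaving out any 1 morula library of either arm or either late Tdgf1 siRNA library. The rise of Hnrnph3 at this step held under 18 of 24 alternatives with Tdgf1 siRNA and 21 with control siRNA. The Tdgf1 call was lost without the filter and without any 1 of the 4 Tdgf1 siRNA libraries compared. The control call was lost without replicate 2 of the early or late control group.

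Hnrnpu encodes a scaffold attachment factor that binds RNA and chromatin. It had 118 and 169, 159 and 116, and 213 and 168 CPM from morula to late blastocyst with Tdgf1 siRNA. With control siRNA it had 140 and 185, 123 and 99.9, and 210 and 191 CPM. Its rise from early to late blastocyst in the control arm was 0.83 ± 0.22 (limma adjusted p of 0.0128), a call lost without the filter, without early control siRNA replicate 2 and without late control siRNA replicate 1. Hnrnpu shares 804 exonic bases with Cox20 on the other strand, at 22.4 to 69.6 CPM. Without both early blastocyst libraries numbered 2, an alternative chosen after seeing the data, this step had 2 called members with Tdgf1 siRNA, Hnrnpdl and Srsf9, and 1 with control siRNA, Hnrnpdl.

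No member was called between the siRNA groups. At each stage, for the mean of the 3 stages and for the change of the siRNA difference over stages, limma called 0 of 30 members at the adjusted threshold, 0 at an unadjusted p under 0.05, and 0 (0%) of all 10751 genes. Tdgf1, the siRNA target, was among these genes and so was not called either. Its log2 difference was -0.84 ± 0.27 in morulae and -0.40 ± 0.27 in early blastocysts (unadjusted limma p of 0.0089 and 0.167). In late blastocysts its level averaged 60.1 ± 15.1 CPM (SD, n = 2) with Tdgf1 siRNA and 90.9 ± 8.94 CPM with control siRNA. Of all genes 194 in morulae, 112 in early and 221 in late blastocysts had an unadjusted p under 0.05, and edgeR and DESeq2 on the recovered reads called 0 members at every stage as well. Leaving out the early blastocyst library labelled Tdgf1 siRNA replicate 2, whose Tdgf1 level was not below that of its control, also gave 0 called members. The members' log2 differences ran from -0.25 to 0.28 in morulae, from -0.15 to 0.28 in early and from -0.27 to 0.34 in late blastocysts, and from -0.17 to 0.21 for the mean over stages. For that mean, all 95% intervals lay between -0.42 and 0.54, which is how large a difference these libraries leave possible. At single stages the intervals reached from -0.70 to 0.91.

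**Figure D3:**
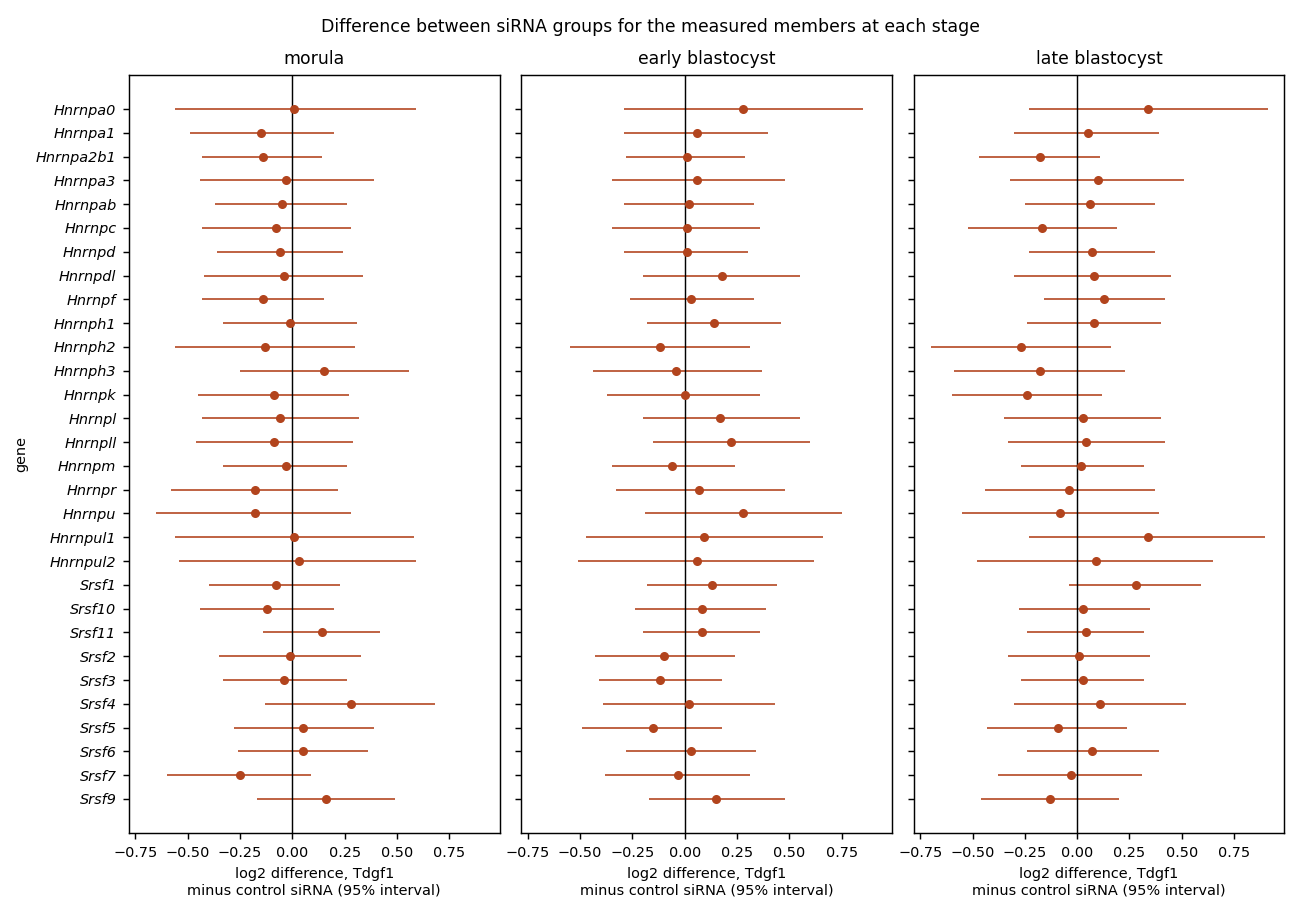
Log2 difference between Tdgf1 siRNA and control siRNA (x axis, bars are 95% intervals) for the 30 measured members (y axis) in morulae, early and late blastocysts, with 2 libraries in each group. Every interval includes 0, and the point values lie between -0.27 and 0.34.

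The members with the smallest unadjusted p in morulae were Srsf7, Srsf4 and Srsf11. Srsf7 had 458 and 491 CPM in Tdgf1 siRNA morulae, against 535 and 600 CPM in control siRNA morulae. The difference was -0.25 with a 95% interval of -0.60 to 0.09 and an unadjusted limma p of 0.135. Srsf4 had 40.9 and 35.5 CPM with Tdgf1 siRNA, against 31.7 and 30.0 CPM with control siRNA, a difference of 0.28 (-0.13 to 0.68). It shares 1532 exonic bases with the transcript Gm12992, at 34.9 ± 8.03 CPM (SD, n = 2) in these Tdgf1 siRNA morulae and 27.9 ± 1.77 CPM in the control siRNA ones. Srsf11, an SR-type protein that associates with the 3′ splice site factor U2AF, had 229 and 239 CPM with Tdgf1 siRNA, against 202 and 221 CPM with control siRNA, a difference of 0.14 (-0.14 to 0.42). In later stages Srsf4 had 41.8 and 35.1 CPM in early and 41.2 and 47.9 CPM in late blastocysts with Tdgf1 siRNA, against 42.2 and 33.8, and 42.7 and 39.2 CPM with control siRNA, with overlap at both stages. Srsf11 had 193 and 195, and 220 and 232 CPM with Tdgf1 siRNA, against 178 and 189, and 223 and 215 CPM with control siRNA.

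In early blastocysts the smallest p-values were those of Hnrnpu, Hnrnpll and Hnrnpa0, whose values in every library are given above. Their differences were 0.28 (95% interval -0.19 to 0.75), 0.22 (-0.15 to 0.60) and 0.28 (-0.29 to 0.85). In all 3 genes the groups overlapped, and the highest value was that of Tdgf1 siRNA replicate 1. In late blastocysts Srsf1 came first, with 264 and 247 CPM with Tdgf1 siRNA, against 207 and 214 CPM with control siRNA. Its difference was 0.28 (-0.04 to 0.59), with an unadjusted limma p of 0.0791. Hnrnpk followed with -0.24 (-0.60 to 0.12) and Hnrnpa2b1 with -0.18 (-0.47 to 0.11), both with lower values in both Tdgf1 siRNA libraries. For the mean over stages the smallest p-values belonged to Hnrnph2, Hnrnpa0 and Hnrnpa2b1, at -0.17 (-0.42 to 0.08), 0.21 (-0.12 to 0.54) and -0.10 (-0.27 to 0.06).

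Groups without overlap were about as common among members as over all genes. In morulae 3 members lay wholly higher and 6 wholly lower with Tdgf1 siRNA, where 27.5% of all genes did not overlap. In early blastocysts 4 lay higher and 1 lower (19.4% of all), and in late blastocysts 3 lay higher and 5 lower (31.9% of all). Srsf11 and Srsf9 lay wholly higher at both of the earlier stages, and neither did so in late blastocysts. Hnrnpa2b1 lay wholly lower in morulae and late blastocysts and not in early blastocysts. The same-numbered libraries of the arms were taken as pairs within a stage. The fit with the pairs as a block also called 0 members in each of these comparisons. Over all genes, that fit had 663 with an unadjusted limma p under 0.05 in morulae, 491 in early and 697 in late blastocysts. It called 5, 5 and 3 of all genes at these stages and 0 for the mean over stages.

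Several hnRNP genes come in pairs of close relatives, and the balance within a pair can be followed in each library. Ratios are differences of log2(value + 1) in the deposited unit. The 3.582 CPM this adds leaves them slightly dependent on library scaling and draws ratios of low genes towards 0. They are not per length, so only their change is read, with no test. Of 14 measured pairs, 6 moved by more than 0.5 in 1 direction between morula and late blastocyst in both arms. The share of other gene pairs that moved so far was not computed, so the count is not read as a trait of related genes. Hnrnpd and Hnrnph1 each enter more than 1 of the 6 pairs. Ratios with Hnrnpdl, Hnrnpab, Hnrnpf or Hnrnph2 also hold the changes of those genes given above. The ratio of Hnrnpd to Hnrnpdl changed by -0.89 with Tdgf1 siRNA and by -0.90 with control siRNA, the shift of largest size in each arm. It was 0.51 and 0.17 in Tdgf1 siRNA morulae, 0.35 and 0.31 in early and -0.34 and -0.76 in late blastocysts. In control siRNA embryos it was 0.48 and 0.24, 0.45 and 0.55, and -0.62 and -0.47. Hnrnpd itself, which binds AU-rich elements and speeds mRNA decay, stayed between 135 and 162 CPM in all 12 libraries, so the shift lay on the side of Hnrnpdl.

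The ratio of Hnrnpd to Hnrnpab changed by 0.68 with Tdgf1 siRNA and by 0.67 with control siRNA. In the group that binds G-rich RNA, the ratio of Hnrnph1 to Hnrnph2 changed by 0.87 with Tdgf1 siRNA and by 0.65 with control siRNA, and that of Hnrnph1 to Hnrnpf by 0.64 and 0.82. Hnrnph1 itself, the most studied of that group, held 286 to 435 CPM over all libraries. Within the A group the ratio of Hnrnpa1 to Hnrnpa3 changed by -0.64 with Tdgf1 siRNA and by -0.71 with control siRNA. Hnrnpa3 had 310 and 408, 417 and 309, and 549 and 443 CPM from morula to late blastocyst with Tdgf1 siRNA, and 316 and 414, 358 and 330, and 478 and 445 CPM with control siRNA. The ratio of Hnrnpl to Hnrnpll, both readers of CA repeats, changed by 0.51 with Tdgf1 siRNA and by 0.56 with control siRNA. Among SR proteins the ratio of Srsf5 to Srsf6 changed by 0.47 and 0.64, and that of Srsf1 to Srsf9 by 0.13 with Tdgf1 siRNA and by -0.52 with control siRNA. With Tdgf1 siRNA the Srsf1 to Srsf9 ratio was 0.97 and 0.49 in morulae and 0.77 and 0.94 in late blastocysts. The change of 0.13 thus lay within the spread of replicates, and its sign is not read as a difference between the arms.

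**Figure D4:**
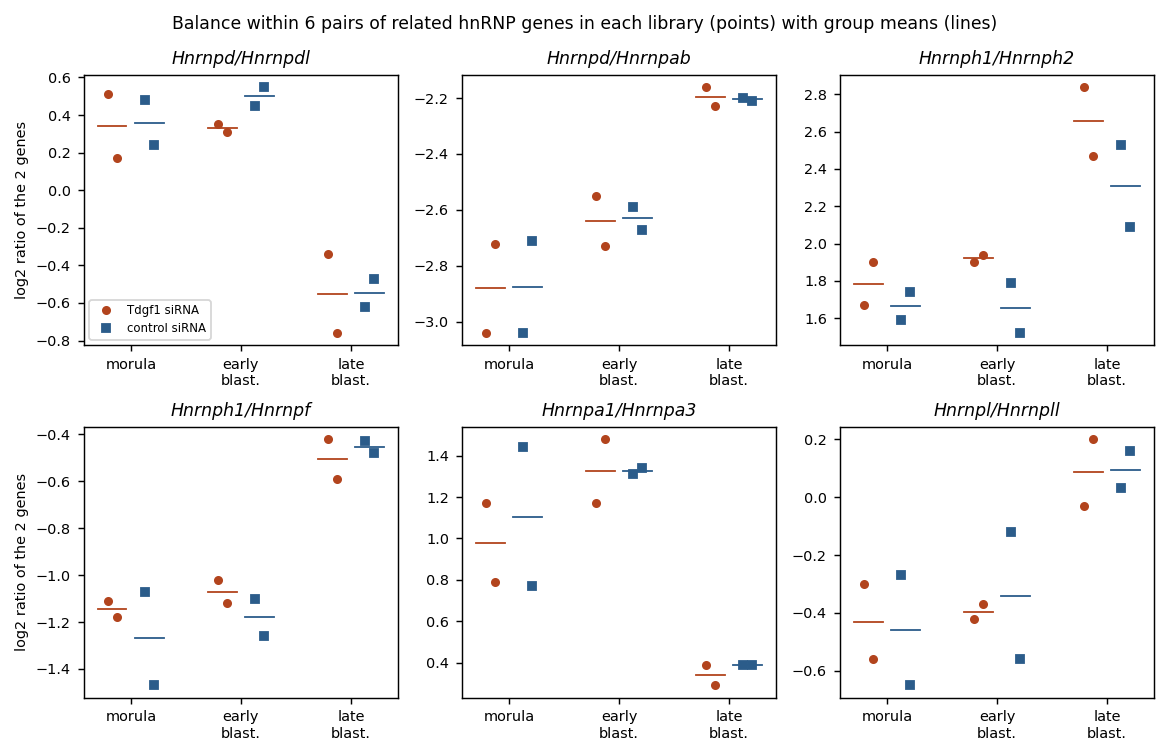
Log2 ratio of levels (y axes, each with its own range that does not start at 0) within 6 pairs of related hnRNP genes at each stage (x axes), with a point for each library and a line for the mean of 2 libraries, Tdgf1 siRNA in red and control siRNA in blue. In each pair the late blastocyst means lie apart from the morula means by more than 0.5, in the same direction in both arms.

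The wider splicing pathway was followed with 6 lists, holding 129 genes in all, of which 124 were tested. Of these 44 were called between morula and late blastocyst with Tdgf1 siRNA (35.5%, against 43.8% of all tested genes) and 48 with control siRNA (38.7%, against 48.2% of all). With Tdgf1 siRNA 12.9% of the list genes rose and 22.6% fell (27.2% and 16.6% of all), and with control siRNA 13.7% rose and 25.0% fell (28.9% and 19.3% of all). Without morula Tdgf1 siRNA replicate 1 or late blastocyst Tdgf1 siRNA replicate 2 the first count was 23 or 22, and without morula or late blastocyst control siRNA replicate 1 the other was 28 or 27. Counts of single lists below are small and stand against the same shares of all genes. Of 9 tested kinases and import receptors of SR proteins, 1 rose and 3 fell with Tdgf1 siRNA, and 2 rose and 4 fell with control siRNA. Srpk1, which phosphorylates SR proteins in the cytoplasm, averaged 161 ± 1.31 CPM (SD, n = 2) in late blastocysts with Tdgf1 siRNA, against 329 ± 7.12 CPM in morulae, and 155 ± 9.27 CPM with control siRNA, against 325 ± 25.8 CPM. Clk1, a nuclear kinase of SR proteins, went the other way, with 140 ± 17.6 CPM in late blastocysts with Tdgf1 siRNA, against 60.5 ± 9.16 CPM in morulae, and 170 ± 27.4 CPM with control siRNA, against 58.7 ± 14.4 CPM. Clk2, a sister kinase, and Tnpo1, an import receptor known for carrying hnRNP A1, fell in both arms, Clk2 by 0.59 ± 0.21 on the log2 scale with Tdgf1 siRNA and by 0.90 ± 0.21 with control siRNA, and Tnpo1 by 0.71 ± 0.17 and 0.99 ± 0.17. Of 14 SR-related coactivators 2 rose in each arm, Rsrc1 and Srrm2.

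Among 7 hnRNP proteins under other symbols 1 rose and 3 fell in each arm. Syncrip, also called hnRNP Q, fell by 1.48 ± 0.17 on the log2 scale with Tdgf1 siRNA and by 1.77 ± 0.17 with control siRNA, more than any gene named Hnrnp. Rbmx, or hnRNP G, fell by 1.12 ± 0.23 and by 1.01 ± 0.23. The poly(C) binding proteins split, with Pcbp1 falling by 0.67 ± 0.17 and 0.88 ± 0.17 and Pcbp2 rising by 0.67 ± 0.17 and 0.54 ± 0.17 in the Tdgf1 and control arms. Of 25 other regulators of alternative splicing 8 rose and 3 fell with Tdgf1 siRNA, and 9 rose and 5 fell with control siRNA. Mbnl3, a muscleblind protein, averaged 45.5 ± 3.52 CPM in late blastocysts with Tdgf1 siRNA, against 0.978 ± 0.0408 CPM in morulae, and 67.5 ± 1.20 CPM with control siRNA, against 1.09 ± 0.746 CPM (SD, n = 2 each). Mbnl2 rose by 1.75 ± 0.28 and 2.11 ± 0.28, Tia1 by 1.39 ± 0.26 and 1.66 ± 0.26 and Ptbp3 by 1.32 ± 0.24 and 1.36 ± 0.24 in the Tdgf1 and control arms.

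Of 59 core spliceosome genes 4 rose and 18 fell with Tdgf1 siRNA, and 3 rose and 16 fell with control siRNA, with a median log2 change of -0.26 and -0.25. Crnkl1, a protein of the catalytic spliceosome, fell by 1.71 ± 0.24 with Tdgf1 siRNA and by 2.19 ± 0.24 with control siRNA, and the snRNP proteins Snrpc and Snrpb fell in both arms, while Snrnp27 rose in both. Of 10 nonsense-mediated decay genes 0 rose and 1 fell with Tdgf1 siRNA, Upf3b, and 0 rose and 3 fell with control siRNA, Upf3b, Smg8 and Smg1. In all 6 lists 0 genes were called between the siRNA groups at any stage. Lists were compared with the background by their counts alone.

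**Figure D5:**
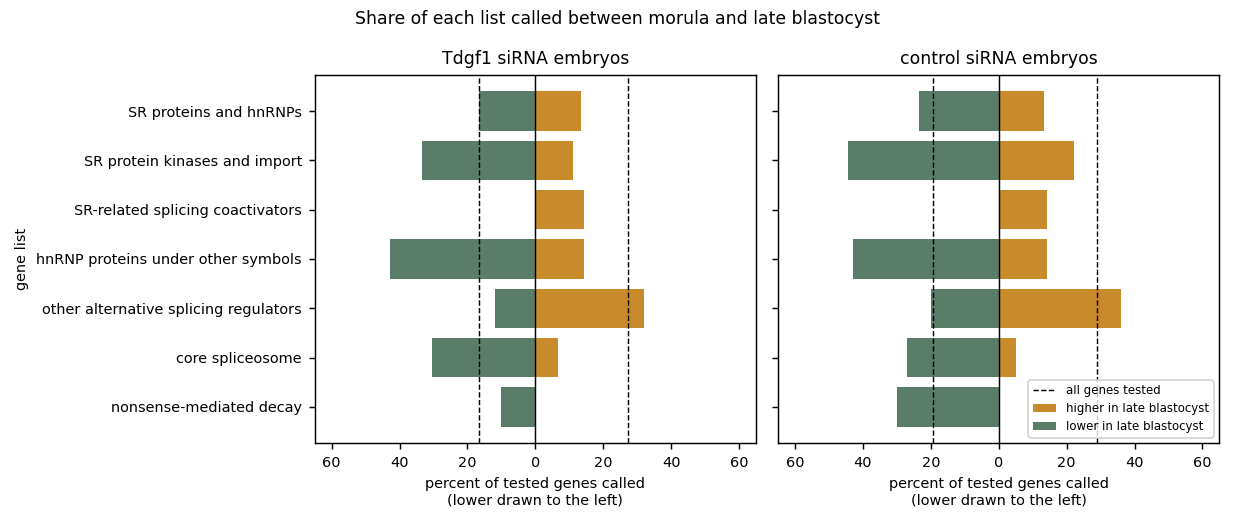
Percent of tested genes in each list (y axis) called higher (right) or lower (left) in late blastocysts than in morulae, for Tdgf1 siRNA embryos at left and control siRNA embryos at right; dashed lines mark the percent over all tested genes, 27.2 and 28.9 higher and 16.6 and 19.3 lower. The members lie below the line for rises in both arms.

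Gene totals cannot show which isoforms were made. In the GENCODE annotation (release M21, GRCm38) 19 of the 30 measured members (63.3%) had a transcript marked for nonsense-mediated decay, against 2886 of 9487 protein-coding genes that passed the same filter (30.4%). A change in a member's total can therefore hold a change in its unproductive transcripts, and the deposited values do not separate them. Annotated pseudogenes matching at least 300 bases at 90% identity or more existed for 14 members. Not every copy was matched to a row of the deposited table, with 26 of 36 matched for Hnrnpa3, 9 of 14 for Hnrnpa1 and 0 of 1 for Hnrnpl, and unmatched copies were not analysed here. The summed level of the matched copies stayed under 1% of the gene's level in each of the 13 members with a matched copy except Hnrnpc. Its copy Gm12696 averaged 57.4 CPM (8.32% of Hnrnpc), with 71.9 ± 17.9 CPM (SD, n = 2) in early blastocysts of the Tdgf1 siRNA group and 84.3 ± 2.58 CPM in those of the control group, and lower means at the other stages. Reads of Hnrnpc and this copy may have been split in the authors' counting.

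The promoters of the members were rich in CpG and often held GC boxes. RefSeq promoter windows of 300 bases (250 before to 50 after the start, GRCm38.p6) matched 29 of the 31 members, all but Hnrnpll and Hnrnpul2. Srsf12, which was not tested, is among the 29. A member's window was that nearest the start of its principal transcript, while other genes were each counted by their first listed window. The windows of Hnrnpl and Hnrnpm lay 2349 and 1402 bases from that start. The median window held 31 CpG and 68.7% G + C, against 22 CpG and 61.0% over 7830 windows of tested genes and 7 CpG and 52.7% over all 27025 windows. The GC box GGGCGG, searched on both strands like every motif here, was in 82.8% of member windows, 66.5% of those of tested genes and 35.9% of all. CCAAT was in 58.6%, against 39.8% and 37.9%. TATAAA was in 13.8% (6.10% and 14.2%), and the ETS core CCGGAAG in 20.7% (21.1% and 9.12%). A match describes these letters and is not a bound site.

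The windows of Hnrnph3 (chr10:63023800-63024099, minus strand) and Hnrnpdl (chr5:100039173-100039472, minus strand), which rose between morula and late blastocyst in both arms, and of Hnrnpab (chr11:51606832-51607131, minus strand) and Srsf1 (chr11:88047123-88047422, plus strand), which fell in both, are shown 5′ to 3′ on the gene's strand so that members that moved in opposite directions can be compared. Capitals mark GGGCGG and CCAAT on either strand; CCGGAAG was searched too and had no match in these 4.
Hnrnph3: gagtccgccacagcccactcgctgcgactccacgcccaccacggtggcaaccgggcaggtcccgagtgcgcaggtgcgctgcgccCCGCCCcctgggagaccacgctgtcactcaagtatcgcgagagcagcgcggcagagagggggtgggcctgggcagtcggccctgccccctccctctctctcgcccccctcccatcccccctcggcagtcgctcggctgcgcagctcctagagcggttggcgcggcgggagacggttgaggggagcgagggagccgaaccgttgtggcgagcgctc
Hnrnpdl: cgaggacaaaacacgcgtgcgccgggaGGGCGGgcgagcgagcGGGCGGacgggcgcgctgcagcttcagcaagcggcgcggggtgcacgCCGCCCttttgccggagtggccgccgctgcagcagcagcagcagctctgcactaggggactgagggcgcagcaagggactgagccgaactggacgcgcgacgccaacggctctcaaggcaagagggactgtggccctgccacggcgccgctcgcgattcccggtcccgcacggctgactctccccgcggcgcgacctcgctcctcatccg
Hnrnpab: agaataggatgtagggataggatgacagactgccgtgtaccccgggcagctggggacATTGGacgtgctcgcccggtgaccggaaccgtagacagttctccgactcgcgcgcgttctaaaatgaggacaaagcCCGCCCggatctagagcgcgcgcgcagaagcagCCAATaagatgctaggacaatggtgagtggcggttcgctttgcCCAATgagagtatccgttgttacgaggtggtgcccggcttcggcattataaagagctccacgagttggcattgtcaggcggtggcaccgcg
Srsf1: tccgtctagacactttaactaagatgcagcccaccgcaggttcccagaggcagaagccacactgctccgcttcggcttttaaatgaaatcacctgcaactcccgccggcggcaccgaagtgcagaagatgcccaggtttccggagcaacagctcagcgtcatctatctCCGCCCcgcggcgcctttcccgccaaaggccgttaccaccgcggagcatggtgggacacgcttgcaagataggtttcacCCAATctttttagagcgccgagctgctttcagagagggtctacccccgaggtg
The windows of both genes that rose held GC boxes and no CCAAT, with 1 GC box in Hnrnph3 and 3 in Hnrnpdl. The windows of both genes that fell held CCAAT, 3 copies in Hnrnpab and 1 in Srsf1, besides 1 GC box each. Of the other members called in both arms, Hnrnpa0, which rose, and Hnrnpf and Hnrnph2, which fell, also had a CCAAT in the window, and Srsf5, which rose, had none. With windows chosen for their changes, this is a description of these genes and no test.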

How the data were processed

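RNA was measured in 12 libraries of mouse embryos, 2 for each of 3 stages and 2 siRNA groups. Libraries were made with low-input cDNA and DNA library kits, per the labels' protocols. The submitters' processing notes name HISAT2 2.1.0, edgeR, HTSeq and Cufflinks and the build mm10 without saying what each did. The authors deposited a gene table headed RPKM per the file headers, but its values are CPM divided by a constant 3.582. Every column sums to 279173.646, and 100.0% of values were whole multiples of 1 read within 0.01 reads, which gave back whole reads. The fixed design had assumed RPKM, and its test was kept because it suits CPM as well.

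Levels are the deposited values multiplied by 3.582. Tests covered the 10751 genes that averaged 1 deposited unit or more, on log2(value + 1) in limma 3.58.1 (lmFit, eBayes with trend, R 4.3.3), with 6 group means, 6 residual and 7.55 prior degrees of freedom and Benjamini-Hochberg adjustment at 0.05. The fit was tested on simulated data first. Alternatives were pseudocounts of 0.1 and 5, no filter, a filter at 5, TMM scaling, quantile normalization, no trend, edgeR 4.0.16 and DESeq2 1.42.0 on the recovered reads, blocks by replicate number, means of the arms within a pair, and each library left out in turn. Same-numbered libraries of the arms deviated together within each stage (correlations of 0.458 in morulae, 0.593 in early and 0.101 in late blastocysts), and on that ground from the data, not from the labels, the numbers were taken as pairs. Limits from counts cover counting error only, since reads amplified from the same molecule cannot be told from separate molecules. Of all gene names 39368 matched 1 gene of GENCODE release M21.

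Named with values in every library were the 12 members with the largest called change from morula to late blastocyst in control siRNA embryos (11 were called), the 3 with the smallest p in each siRNA comparison, and the 3 highest and 3 lowest per kb. Further members were named after their values were seen. The members and gene lists were chosen with earlier results of these data known.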

Additional observations from a re-analysis of the deposited data

How the results depend on the processing

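In the siRNA comparisons the count of called members was 0 under every alternative run, the replicate block included. The block thus changed no member's call there. With number across stages as the replicate block, called members between stages numbered 2, 7 and 10 with Tdgf1 siRNA and 3, 8 and 12 with control siRNA (morula to early, early to late, morula to late). Counts between stages moved more. From morula to early blastocyst the Tdgf1 siRNA count of 2 was 0 without the filter or the trend and 1 after quantile normalization, and the control count of 3 was 1 without the filter, with TMM scaling, without the trend and with edgeR. From early to late blastocyst the Tdgf1 siRNA count of 6 was 3 without the filter, and the control count of 7 was 3 without the filter and 4 without the trend. Without both early blastocyst libraries numbered 2, a choice made after seeing the data, this step had 2 called members with Tdgf1 siRNA and 1 with control siRNA. From morula to late blastocyst the control count of 11 was 7 without the filter or the trend. Leaving out 1 library gave 0 to 2, 0 to 8 and 5 to 11 called members with Tdgf1 siRNA and 0 to 3, 1 to 8 and 7 to 11 with control siRNA over the same steps, 22 to 48 (Tdgf1) and 27 to 53 (control) called list genes, and 5 to 7 pairs with a moved ratio. From early to late blastocyst the count dropped to 2 without early Tdgf1 siRNA replicate 2 and to 0 without late Tdgf1 siRNA replicate 2, and in the control arm to 1 without early replicate 2 and to 2 without either late replicate. The first step had 0 calls without morula Tdgf1 siRNA replicate 2 or early control siRNA replicate 1, and most other omissions left 1 call. Hnrnpab, Hnrnpdl and Hnrnph3 kept their call from morula to late blastocyst in both arms under all 24 alternatives. No result changed sign past its threshold. The cause of these shifts was not tested. At this depth Srsf12 was tested only without the filter.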
